A study of Drosophila melanogaster with 35 samples.

Results

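The comparison set fat body libraries of S106>UASfoxo switch females against those of S106 switch females, with 4 libraries in each group, 8 of the 35 libraries of the series. The libraries were chosen by tissue, genotype and feeding as the labels give them, and no measured value was used. Flies of both groups carried the S106 driver, had mated before they were parted from males, were fed 200 µM RU486 over 21 days, spent the next 7 days on control food, and were labelled as 30 days old. Only the S106>UASfoxo switch flies carried UASfoxo, and the S106 switch libraries are titled WT although their genotype label names the driver. The same genotypes without inducer, 4 S106>UASfoxo control and 5 S106 control libraries of fat body, shared no library with the compared groups. In these the 2 genotypes could be compared a second time. Nothing in the labels tells whether libraries of one group are of separate cultures, and the p-values therefore measure the spread between libraries alone.

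The fat body of the fly stores lipid and glycogen, makes yolk and lipid transport proteins, and secretes antimicrobial peptides, and so does work that liver and adipose tissue share in mammals. dFOXO, encoded by foxo, is the forkhead transcription factor that insulin signalling keeps out of the nucleus. In fed flies Akt phosphorylates it, and when insulin signalling is low it enters the nucleus and raises genes such as Thor, the translation inhibitor 4E-BP, and InR, the insulin receptor. S106 is a GeneSwitch driver known to act in the adult abdominal fat body and gut, whose activator protein binds UAS sites when it is bound by the steroid RU486. The week on control food falls after the feeding that turns the transgene on, so the comparison asks which transcripts still differ by genotype once the inducer has been withdrawn.

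The libraries held 6856804 to 11833118 counts in S106>UASfoxo switch and 8181682 to 13287427 in S106 switch, over 14649 rows of genes, of which 9819 had enough counts to be tested. Fat body markers were abundant in every library, with summed levels of 109892 to 203098 CPM (counts scaled to library size) over 11 tested genes in S106>UASfoxo switch and 56216 to 215146 CPM in S106 switch. Ovary and egg markers, which cover eggshell and germline genes, summed to 1896, 256, 369 and 3134 CPM in S106>UASfoxo switch replicates 1 to 4 and to 3793, 281, 53.1 and 6125 CPM in S106 switch replicates 1 to 4. Replicates 1 and 4 of both groups were thus the 4 highest. Digestive enzyme markers summed to 804 CPM in S106>UASfoxo switch replicate 2, against at most 180 CPM in the other 7 libraries.

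Of 9819 genes edgeR called 5 (0.0509%) at an adjusted p under 0.05, with 4 higher (0.0407%) and 1 lower (0.0102%) in S106>UASfoxo switch. Egfrap, Dop1R1, Argp and dpr9 were higher and CG43064 was lower, each with groups that did not overlap, as was so for 110 genes (1.12%) in all. The 4 higher genes were at no more than 1.21 CPM in any S106 switch library. All 5 lie on chromosome 3, and none is on the lists of metabolic, immune or insulin signalling genes.

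Egfrap (FBgn0053993, 3L from 5933036 to 5950658) had 85, 79, 60 and 33 reads in S106>UASfoxo switch replicates 1 to 4, against 1, 0, 0 and 0 reads in S106 switch replicates 1 to 4. Every S106>UASfoxo switch library thus held reads of the gene, while a single read was seen across the S106 switch libraries. Pooled over libraries, 257 reads against 1 read gave a ratio of 293 after scaling to library totals, with an exact 95% interval of 52.2 to 11637 that covers counting error only. The fitted log2 fold change was 7.97 ± 0.97 (SE), with an edgeR adjusted p of 0.00428.

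Dop1R1 (FBgn0011582, 3R from 14165379 to 14214810), a dopamine receptor of the D1 type, had 6.75, 11.7, 15.3 and 17.5 CPM in S106>UASfoxo switch replicates 1 to 4, against 0.169, 0.272, 1.21 and 0.231 CPM in S106 switch. The lowest S106>UASfoxo switch library stood above the highest S106 switch library, replicate 3. The means were 12.8 ± 4.68 CPM (SD, n = 4) in S106>UASfoxo switch and 0.470 ± 0.493 CPM (SD, n = 4) in S106 switch, a log2 fold change of 4.82 ± 0.68 (SE) with an edgeR adjusted p of 0.00921.

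dpr9 (FBgn0038282, 3R from 15054930 to 15077206), which encodes an immunoglobulin-domain protein of the cell surface, had 12.1, 6.35, 5.70 and 5.87 CPM in S106>UASfoxo switch replicates 1 to 4, against 0.395, 0.136, 0.724 and 0.231 CPM in S106 switch. Replicate 1 was the highest of the S106>UASfoxo switch libraries and the others lay close together. Its log2 fold change was 4.31 ± 0.73 (SE), and its edgeR adjusted p of 0.0468 was the closest of the 5 to the threshold. Argp (FBgn0051469, 3R from 13709159 to 13709939) had 1.97, 1.90, 2.06 and 3.08 CPM in S106>UASfoxo switch, against 0.282, 0, 0.121 and 0.0771 CPM in S106 switch. Its log2 fold change was 3.93 ± 0.60 (SE), with an edgeR adjusted p of 0.0167.

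CG43064 (FBgn0262366, 3L from 11834721 to 11836721), a protein-coding gene named only by its number, had 2.65, 2.54, 3.52 and 3.08 CPM in S106>UASfoxo switch replicates 1 to 4, against 21.9, 21.2, 11.8 and 9.87 CPM in S106 switch. The S106>UASfoxo switch libraries lay within a narrow band, and S106 switch replicates 1 and 2 stood above replicates 3 and 4. The means were 2.95 ± 0.447 CPM (SD, n = 4) in S106>UASfoxo switch and 16.2 ± 6.24 CPM (SD, n = 4) in S106 switch, a log2 fold change of −2.45 ± 0.34 (SE) with an edgeR adjusted p of 0.00921.

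**Figure D1:**
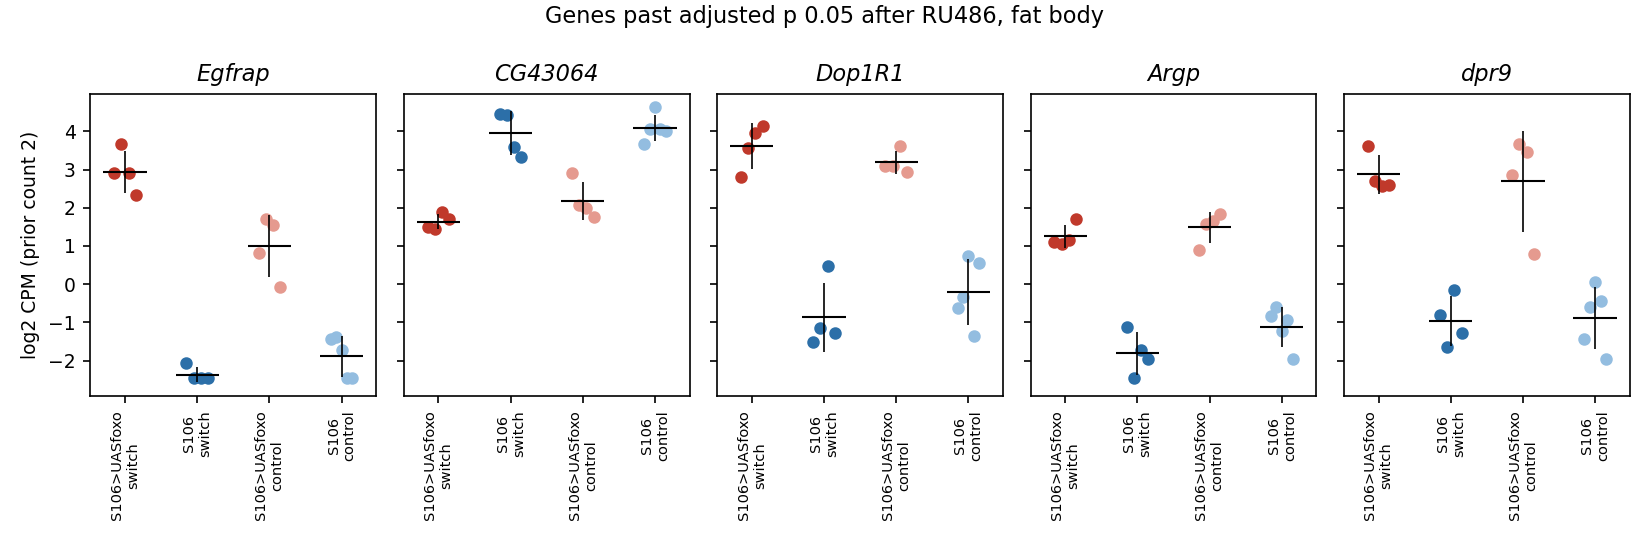
Log2 CPM (prior count 2) of the 5 genes past an adjusted p of 0.05 after RU486, 1 point per library, with the mean (horizontal line) and SD (vertical line) of each group. In each panel the S106>UASfoxo switch points do not overlap the S106 switch points, and the control groups without inducer lie on the same sides.

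The spread between libraries was estimated over all 17 fat body libraries. With the 8 compared libraries alone edgeR called 1 gene, Egfrap, at an adjusted p of 0.0171, and the other 4 had adjusted p-values of 0.0927 to 0.247. Their log2 fold changes were then 4.83 for Dop1R1, 4.30 for dpr9, 3.91 for Argp and −2.45 for CG43064. Without any single library of the 8 edgeR called 2 to 4 genes, and without S106 switch replicate 2 or replicate 4 it called 2, as Dop1R1, Argp and dpr9 then had adjusted p-values of 0.0543 to 0.337. dpr9 lost its call whichever of the 8 was left out, and Argp also did without S106 switch replicate 3 (adjusted p 0.0857) or S106>UASfoxo switch replicate 4 (0.0685). Egfrap and CG43064 passed whichever of the 8 was left out of the fit over all fat body libraries. Replicates 1 and 4 of both groups were the 4 libraries highest in ovary and egg markers among the 8 compared. Without them edgeR called 0 genes, with 62 at an unadjusted p under 0.05. That fit compared only replicates 2 and 3 of each group. It kept the control libraries, of which S106 control replicate 1 summed to 4563 CPM of these markers and S106>UASfoxo control replicate 4 to 2637 CPM. In that reduced fit the log2 fold changes of the 5 genes were 9.71 for Egfrap, 4.72 for Argp, 4.13 for Dop1R1, 3.73 for dpr9 and −2.45 for CG43064.

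Dop1R1 and dpr9 are genes best known from neurons, so the neuron markers are given beside them. Of the 13 markers 8 could be tested, 7 with positive and 1 with negative log2 fold changes, and none was called. The 8 tested markers summed to 206, 218, 231 and 214 CPM in S106>UASfoxo switch replicates 1 to 4, against 125, 238, 258 and 106.4 CPM in S106 switch. None of these 8 was at 0 in any library of either group. The groups thus overlapped, with S106 switch replicates 1 and 4 lowest. The median log2 fold change of the 8 tested markers was 0.51, with a range of 0.26 to 0.78 with 1 library left out, and −0.18 without inducer. Without the 4 libraries highest in ovary and egg markers it was 0.06 over the 10 markers tested in that fit. Syt1, a synaptic vesicle protein, had 1.97, 1.59, 2.43 and 10.3 CPM in S106>UASfoxo switch, against 1.52, 1.63, 1.09 and 0.463 CPM in S106 switch. S106>UASfoxo switch replicate 4 stood far above the other libraries, the groups overlapped, and the log2 fold change of 1.78 ± 0.62 (SE) had an unadjusted edgeR p of 0.011 and was the highest of the list. The part of neurons in the Dop1R1 and dpr9 values was not tested. In bulk tissue fewer cells of a type and less RNA per cell cannot be told apart.

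The genotype difference without inducer, measured in other libraries, had the same direction for all 5 genes. There edgeR called 4 of 9819 genes (0.0407%), namely dpr9, Dop1R1, Argp and CG43064. With 1 of the 9 libraries left out edgeR called 0 to 1 gene, and limma-voom called 2 genes with all libraries. Dop1R1 had 8.41, 8.43, 12.2 and 7.46 CPM in S106>UASfoxo control, against 0.469, 0.611, 1.48, 0.213 and 1.28 CPM in S106 control. In each genotype the range without inducer overlapped the range after RU486. Egfrap had 1.57, 3.06, 2.76 and 0.768 CPM in S106>UASfoxo control, against 0.188, 0.204, 0.123, 0 and 0 CPM in S106 control. The groups did not overlap, and its log2 fold change of 4.30 ± 0.73 (SE) had an edgeR adjusted p of 0.0517, just outside the threshold. Unlike Dop1R1, its lowest S106>UASfoxo switch library, at 4.85 CPM, lay above its highest S106>UASfoxo control library, at 3.06 CPM.

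Whether the genotype difference depends on RU486 feeding was tested as the difference of the 2 differences. edgeR called 0 of 9819 genes (0%), with 185 at an unadjusted p under 0.05 (1.88%), and DESeq2 and limma-voom also called 0. Egfrap had the largest such difference among the 5 genes, 3.67 ± 1.30 on the log2 scale (SE), with an unadjusted edgeR p of 0.0127. Its S106 side rests on 1 read pooled over S106 switch and 6 reads pooled over S106 control. The differences for Dop1R1, Argp and dpr9 were 1.30 ± 0.83, 0.83 ± 0.74 and 0.10 ± 0.89, and that for CG43064 was −0.54 ± 0.44 (SE). These p-values do not show that the genotype difference was the same with and without RU486 feeding.

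Counting the 5 called genes, 154 genes (1.57%) had an unadjusted edgeR p under 0.05 after RU486, 111 of them higher (1.13%) and 43 lower (0.438%) in S106>UASfoxo switch. Without inducer 1083 genes did (11%). The lists shared 42 genes, which were 27.3% of the 154 and 3.88% of the 1083, and all 42 had the same direction in both. Both comparisons came from the same fit, with a shared estimate of each gene's spread, so the 2 lists are not independent. Over all 9819 genes 54.8% had the same sign in both comparisons, against 78.6% of the 154. Lists at an unadjusted p under 0.05 are given as descriptions, since none but the 5 genes passed the adjustment.

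**Figure D2:**
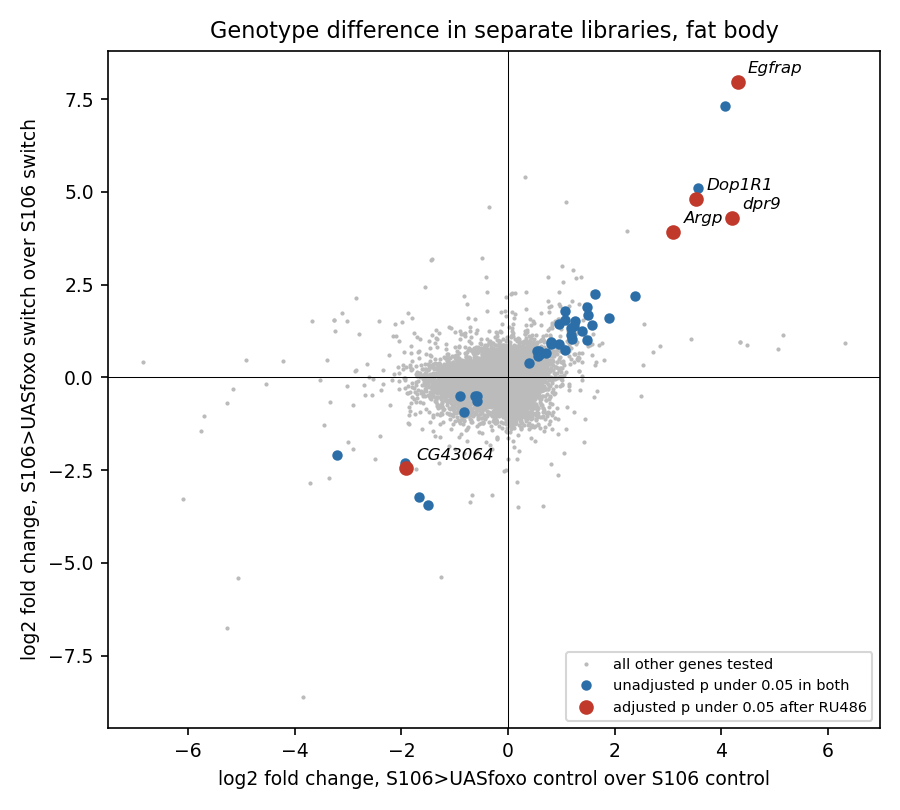
Log2 fold change of S106>UASfoxo switch over S106 switch (vertical) against that of S106>UASfoxo control over S106 control (horizontal), 1 point per gene tested. The 5 called genes and the 42 genes at an unadjusted p under 0.05 in both comparisons, which include them, lie on the same side of 0 on both axes.

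By position, 3 of the 5 called genes lie on 3R within 2 Mb of the start of foxo, out of 342 tested genes there, and 2 of them, Dop1R1 and Argp, within 1 Mb, out of 144. Dop1R1 starts 157.9 kb and dpr9 1020.3 kb beyond the foxo start, and Argp starts 347 kb before it. The 10 tested genes nearest to foxo did not share the pattern, with 5 higher and 5 lower, log2 fold changes of −0.94 to 0.62 and a smallest unadjusted edgeR p of 0.203. Among these, Npc2b, a carrier of sterols, had a log2 fold change of 0.54 ± 0.41, and PK1-R, a receptor for pyrokinin peptides, one of 0.62 ± 0.51 (SE). rdx, which encodes a substrate adaptor of a ubiquitin ligase, stood at −0.64 ± 0.82 (SE), and its value turned positive without the libraries high in ovary and egg markers. Per arm, the called genes were 2 of 1855 tested on 3L and 3 of 2399 on 3R, with none on X, 2L, 2R or 4.

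**Figure D3:**
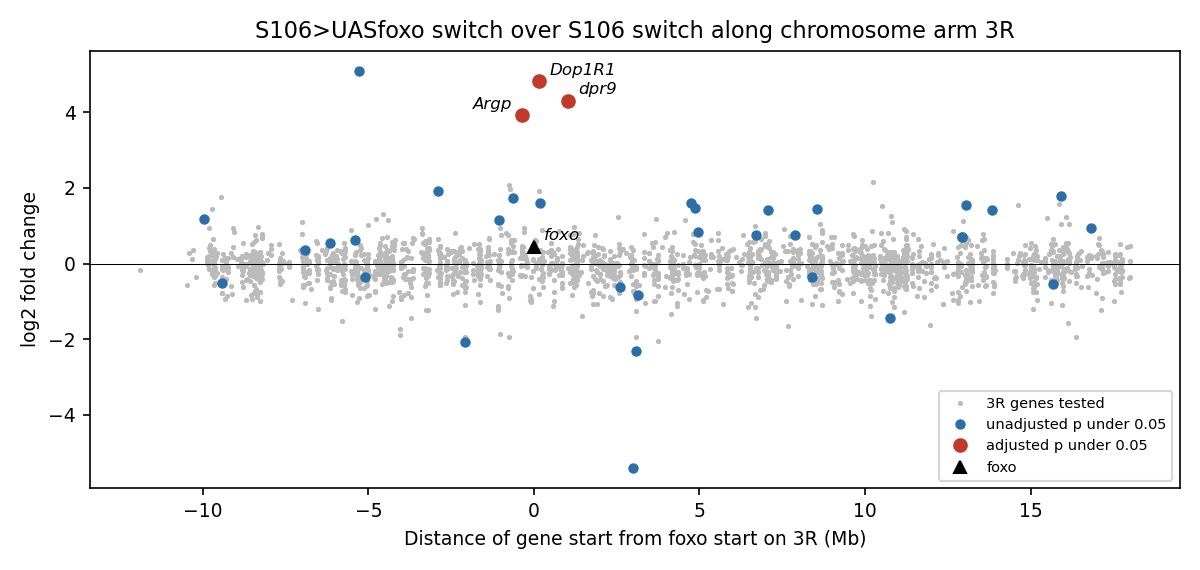
Log2 fold change of S106>UASfoxo switch over S106 switch for the genes tested on 3R, by distance of the gene start from the foxo start in Mb. Argp, Dop1R1 and dpr9 stand at 3.93, 4.82 and 4.31 within 2 Mb of foxo, whose own value is 0.45.

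The transgene's own gene did not pass. foxo (FBgn0038197, 3R from 14056945 to 14087978) had 157, 160, 240 and 95.02 CPM in S106>UASfoxo switch replicates 1 to 4, against 90.8, 143, 155 and 90.6 CPM in S106 switch. Replicate 3 of S106>UASfoxo switch was the highest and its replicate 4 lay near the lowest S106 switch libraries, so the groups overlapped. The log2 fold change was 0.45 ± 0.35 (SE), with an edgeR adjusted p of 0.978. Reads of the transgene and of the endogenous gene are counted together, so the level says nothing of either alone. Without inducer the log2 fold change was −0.27 ± 0.33 (SE). The white gene w, an eye pigment transporter that marks many fly transgenes, stood at 0.37 ± 0.56 (SE).

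Genes of insulin signalling were examined as a list of 17, of which 11 were higher, 6 were lower and none was called, with a median log2 fold change of 0.13 beside −0.03 over all genes tested. The list median was 0.33, with 16 of 17 above 0, without the 4 libraries highest in ovary and egg markers, and 0.08 to 0.19 with 1 library left out. InR had 46.0, 72.4, 118 and 53.8 CPM in S106>UASfoxo switch, against 35.2, 30.1, 47.0 and 40.4 CPM in S106 switch. The S106>UASfoxo switch libraries were the higher ones apart from replicate 1, which lay within the S106 switch range. Its log2 fold change of 0.92 ± 0.46 (SE) had an unadjusted edgeR p of 0.0603, and without inducer it was 0.77 ± 0.43 (SE). Akt, the kinase that phosphorylates dFOXO, stood at 0.40 ± 0.21, and Ilp6, an insulin-like peptide of the fat body, at 0.79 ± 0.43 (SE).

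Of 14 reported dFOXO targets 9 were higher and 5 lower, none was called, and the median was 0.29. Thor had 348, 1108, 870 and 762 CPM in S106>UASfoxo switch replicates 1 to 4, against 232, 884, 783 and 285 CPM in S106 switch. Both groups spanned a similar range, with replicate 1 lowest in each, and the log2 fold change was 0.50 ± 0.52 (SE). Myc, the growth regulator, stood at 0.35 ± 0.21 (SE). The median of this list was −0.03 without inducer, 0.18 to 0.47 with 1 library left out, and −0.07 without the 4 libraries highest in ovary and egg markers. Xbp1, the transcription factor of the unfolded protein response, had 444, 424, 486 and 169 CPM in S106>UASfoxo switch, against 163, 413, 540 and 225 CPM in S106 switch. Its log2 fold change was 0.18 ± 0.56 (SE) and turned to −0.05 without S106 switch replicate 1.

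The 20 genes of next smallest p are given as values and not as changes. Among them DESeq2 called 4, as part of its 9 calls (0.0919%), lncRNA:dntRL, CG34301, CR40190 and CG1773. lncRNA:dntRL, a long noncoding RNA, had 3.59, 0.952, 0.728 and 5.58 CPM in S106>UASfoxo switch, against 28.5, 21.5, 15.4 and 35.6 CPM in S106 switch. No library of one group reached the other, and the log2 fold change was −3.21 ± 0.62 (SE), with an edgeR adjusted p of 0.154. CG34301 on 3R had 4.36, 4.92, 2.79 and 6.76 CPM in S106>UASfoxo switch, against 0.113, 0, 0.121 and 0.231 CPM in S106 switch, with a log2 fold change of 5.10 ± 1.03 (SE). Its groups were also apart, and without inducer the log2 fold change was 3.56 ± 0.81 (SE). CR40190, annotated as a pseudogene, stood at −3.43 ± 0.81 (SE) and did not overlap between the groups.

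GluRIA, an AMPA-type glutamate receptor subunit on 3L, had 1.71, 2.06, 0 and 3.38 CPM in S106>UASfoxo switch, against 0 in all 4 S106 switch libraries. Replicate 3 of S106>UASfoxo switch was at 0 as well, so the groups touched. Pooled, 56 reads in S106>UASfoxo switch against none in S106 switch gave a ratio of at least 21.3, set against a floor of 3 reads over the group. That bound leaves out the spread between libraries, and the edgeR adjusted p of GluRIA was 0.978. CG30002, CG1773 and CG10459 follow each other on 2R between 9704384 and 9708722, and their log2 fold changes were 1.89 ± 0.50, 2.07 ± 0.51 and 2.99 ± 0.84 (SE). CG1773 and CG10459 overlap on the same strand, so their reads cannot be fully told apart.

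Lectin-galC1, a galactose-binding C-type lectin, had 433, 569, 599 and 578 CPM in S106>UASfoxo switch, against 108, 310, 241 and 96.2 CPM in S106 switch. It was the most abundant of these 20 genes, its groups were apart, and S106 switch replicates 1 and 4 were lowest. The log2 fold change was 1.53 ± 0.42 (SE) after RU486 and 1.25 ± 0.39 (SE) without inducer, with an edgeR adjusted p of 0.978 after RU486. Jhbp11 stood at 1.56 ± 0.45, CG4757 at 1.92 ± 0.49, yellow-e, of the yellow protein family, at 1.74 ± 0.52, and CG31683 at 1.76 ± 0.50 (SE). loaf had a log2 fold change of 1.02 ± 0.30 (SE) after RU486 and −0.50 ± 0.28 without inducer, with an unadjusted edgeR p of 0.00189 for the difference. Of the 20 genes 18 had the same sign in the comparison without inducer.

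No gene of sugar metabolism was called. All 14 tested glycolysis genes had positive log2 fold changes, with a median of 0.26, and all 14 of gluconeogenesis, glycogen and trehalose did, with a median of 0.33. The share above 0 over all genes tested was 46.2%. Fat body markers had a median of 0.26, with 9 of 11 tested genes above 0. Their median was 0.0087 without the 4 libraries highest in ovary and egg markers and −0.13 without inducer. The part of fat body content in the medians of sugar metabolism was not tested. Without inducer the medians of the 2 sugar lists were −0.72 and −0.51, with 0 of 14 and 4 of 14 above 0. Among glycolysis genes, S106>UASfoxo control replicate 4 had a mean log2 CPM of 5.96, against 7.19 to 7.90 in replicates 1 to 3. S106 control libraries ran from 7.32 to 8.51. In fat body markers that library stood at 9.36, against 10.6 to 11.0 in its group and 9.82 to 11.4 in S106 control. No list median without inducer is given with a library left out. Ldh, lactate dehydrogenase, had 30.8, 40.8, 37.6 and 15.0 CPM in S106>UASfoxo switch, against 14.3, 21.2, 27.7 and 6.86 CPM in S106 switch. Replicate 4 was lowest in both groups, and the log2 fold change was 0.83 ± 0.55 (SE). UGP, which makes UDP-glucose for glycogen, stood at 0.60 ± 0.46, and Hex-C, a hexokinase, at 0.63 ± 0.48 (SE). The Ldh difference of differences was 1.64 ± 0.76 (SE) with an unadjusted edgeR p of 0.0477.

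Of 15 TCA cycle genes 14 were above 0, with a median of 0.28 after RU486 and −0.15 without inducer. Idh3a, a subunit of isocitrate dehydrogenase, had 178, 187, 165 and 188 CPM in S106>UASfoxo switch, against 143, 145, 162 and 145 CPM in S106 switch. The groups did not overlap, yet replicate 3 of both came within a few CPM, and the log2 fold change was 0.27 ± 0.16 (SE). Its partner subunit Idh3b, at 0.28 ± 0.18 (SE), also did not overlap. In the fit without the 4 libraries highest in ovary and egg markers the median was 0.13 for glycolysis, with 13 of 14 above 0, and 0.10 for gluconeogenesis, glycogen and trehalose, with 10 of 14 above 0. The TCA cycle median was then 0.00034, with 8 of 15 above 0. With 1 library left out the 3 medians ranged over 0.12 to 0.43, 0.14 to 0.58 and 0.19 to 0.42, with glycolysis and gluconeogenesis lowest without S106 switch replicate 1 and the TCA cycle lowest without S106 switch replicate 4.

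Lipid genes showed no called member. The list of fatty acid and triglyceride synthesis had a median of 0.14, with 20 of 23 genes above 0, and that of fatty acid oxidation one of 0.10, with 11 of 16 above 0. Lipid droplet proteins and lipases had a median of −0.03, with 8 of 12 below 0. These 3 medians were −0.17, −0.11 and −0.26 without the 4 libraries highest in ovary and egg markers, and −0.41, −0.64 and −0.25 without inducer, where 0 of 16 genes of fatty acid oxidation were above 0. In S106>UASfoxo control replicate 4 the mean log2 CPM of fatty acid oxidation genes was 5.64, against 6.99 to 7.67 in replicates 1 to 3. It was 6.87 to 8.24 in S106 control. Single libraries turned each of the 3 medians after RU486. The median was −0.0016 for synthesis without S106>UASfoxo switch replicate 2 and −0.11 for oxidation without S106 switch replicate 1, and 0.13 for lipid droplets and lipases without S106 switch replicate 3. bgm, an acyl-CoA synthetase, had 343, 245, 271 and 131 CPM in S106>UASfoxo switch, against 150, 172, 158 and 111 CPM in S106 switch, a log2 fold change of 0.74 ± 0.41 (SE). Its replicate 4 was lowest in each group. Etfb, which passes electrons from fatty acid oxidation to the respiratory chain, stood at 0.52 ± 0.44 (SE). All 12 lipoprotein and lipid carrier genes were above 0, with a median of 0.33 that was 0.04 without those 4 libraries and 0.0043 without inducer. Of these, apolpp, the precursor of the main lipid carrier of the blood, stood at 0.46 ± 0.39 and the lipoprotein receptor LpR2 at 0.48 ± 0.35 (SE). Of 9 tested yolk and storage proteins 6 were above and 3 below 0, with a median of 0.11 that was −0.22 without S106>UASfoxo switch replicate 2, 0.58 without S106 switch replicate 3 and −0.23 without inducer. Among them the yolk proteins Yp1 and Yp2 stood at 0.47 ± 0.56 and 0.63 ± 0.58 (SE).

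The 2 groups of immune effectors lay on opposite sides. Of 18 tested Bomanins and Daishos, short peptides that Toll signalling induces against infection, 17 were above 0, with a median of 0.63. BomS2 had 233, 679, 482 and 550 CPM in S106>UASfoxo switch, against 132, 400, 198 and 157 CPM in S106 switch. Replicate 2 of S106 switch lay within the S106>UASfoxo switch range, and the log2 fold change was 1.13 ± 0.52 (SE), with an unadjusted edgeR p of 0.0439. BomT1 stood at 1.34 ± 0.55, BomT2 at 1.11 ± 0.53 and BomBc2 at 0.94 ± 0.48 (SE). The list median was 0.78 without inducer, where 17 of 18 were also above 0, and 0.33 after RU486 without the 4 libraries highest in ovary and egg markers. It was 0.45 to 1.03 with 1 library left out.

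Of 13 tested antimicrobial peptides 11 were below 0, with a median of −0.42 after RU486 and −0.36 without inducer. Without the 4 libraries highest in ovary and egg markers it was −0.71 over 14 tested genes, and with 1 library left out −0.74 to −0.16, the last without S106 switch replicate 3. Metchnikowin (Mtk) had 12.8, 23.5, 16.0 and 34.2 CPM in S106>UASfoxo switch, against 20.5, 64.2, 46.9 and 17.0 CPM in S106 switch. S106 switch replicates 2 and 3 were the highest libraries while replicates 1 and 4 lay within the other group's range, and the log2 fold change was −0.78 ± 0.58 (SE). AttC, an attacin, stood at −0.56 ± 0.65 (SE).

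Respiratory chain genes of the nucleus had a median of 0.28, with 69 of 71 above 0, and cytosolic ribosomal protein genes one of 0.25, with 83 of 85 above 0. Without inducer the medians were 0.22 and 0.20. Leaving out S106 switch replicate 4 took them to 0.12 and 0.09. Without the 4 libraries highest in ovary and egg markers they were −0.07 and −0.06, with 18 of 72 and 24 of 85 genes above 0. ND-AGGG, a complex I subunit, stood at 0.97 ± 0.37 (SE) with an unadjusted edgeR p of 0.0201, and RpS15Ab, a ribosomal protein of the small subunit, at 0.65 ± 0.25 (SE) with 0.018. Genes of the mitochondrial ribosome stood evenly, 35 of 72 above 0, at a median of −0.01 after RU486 and 0.34 without inducer.

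The 27 genes of the mitochondrial genome itself were chosen after their values were seen. Of these 25 were above 0, with a median of 0.76 after RU486 and 0.25 without inducer, and 5 had an unadjusted edgeR p under 0.05. The median was 0.38 without S106>UASfoxo switch replicate 4 and 1.04 without its replicate 1. Their summed level was 19903, 44923, 44548 and 63912 CPM in S106>UASfoxo switch replicates 1 to 4, against 31675, 36830, 27806 and 18907 CPM in S106 switch. Replicate 1 of S106>UASfoxo switch was among the lowest libraries and its replicate 4 the highest, so the groups overlapped. The 12 mitochondrial tRNA genes were all above 0, with a median of 1.34 that was 0.98 to 1.75 with 1 library left out, and mt:tRNA:His-GTG stood at 2.69 ± 0.71 (SE) with an edgeR adjusted p of 0.978.

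No gene of the detoxification, clock and hormone lists was called. The 72 cytochrome P450 genes had a median of 0.13, the 20 UDP-glycosyltransferases 0.06 and the 27 glutathione S-transferases −0.16. Single libraries turned each of these, to −0.08 and −0.12 for cytochrome P450 genes and UDP-glycosyltransferases without S106 switch replicate 4 and to 0.08 for glutathione S-transferases without S106 switch replicate 3. Among them Cyp6a13 stood at 0.73 ± 0.38, Ugt50B3 at 1.03 ± 0.44 and GstZ1 at −0.55 ± 0.31 (SE). The 10 clock genes had a median of 0.04, with 5 above and 5 below 0, that was 0.64 without S106 switch replicate 3 and −0.48 without inducer, where 0 of 10 were above 0. Their mean log2 CPM was 4.37 in S106>UASfoxo control replicate 4, against 5.10 to 5.46 in replicates 1 to 3 and 4.88 to 6.02 in S106 control. Clk, an activator of the circadian clock, had 57.1, 49.2, 45.1 and 31.7 CPM in S106>UASfoxo switch, against 26.5, 26.7, 34.9 and 12.5 CPM in S106 switch. Replicate 3 of S106 switch reached above the lowest S106>UASfoxo switch library, replicate 4, and the log2 fold change was 0.87 ± 0.37 (SE) with an unadjusted edgeR p of 0.0344. The 17 genes of ecdysone and nuclear receptors had a median of 0.11 after RU486 and −0.34 without inducer. Eip93F, an ecdysone-induced factor of fat body remodelling, stood at 0.76 ± 0.34, and Nmdmc, of mitochondrial folate metabolism, at 1.03 ± 0.59 (SE).

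**Figure D4:**
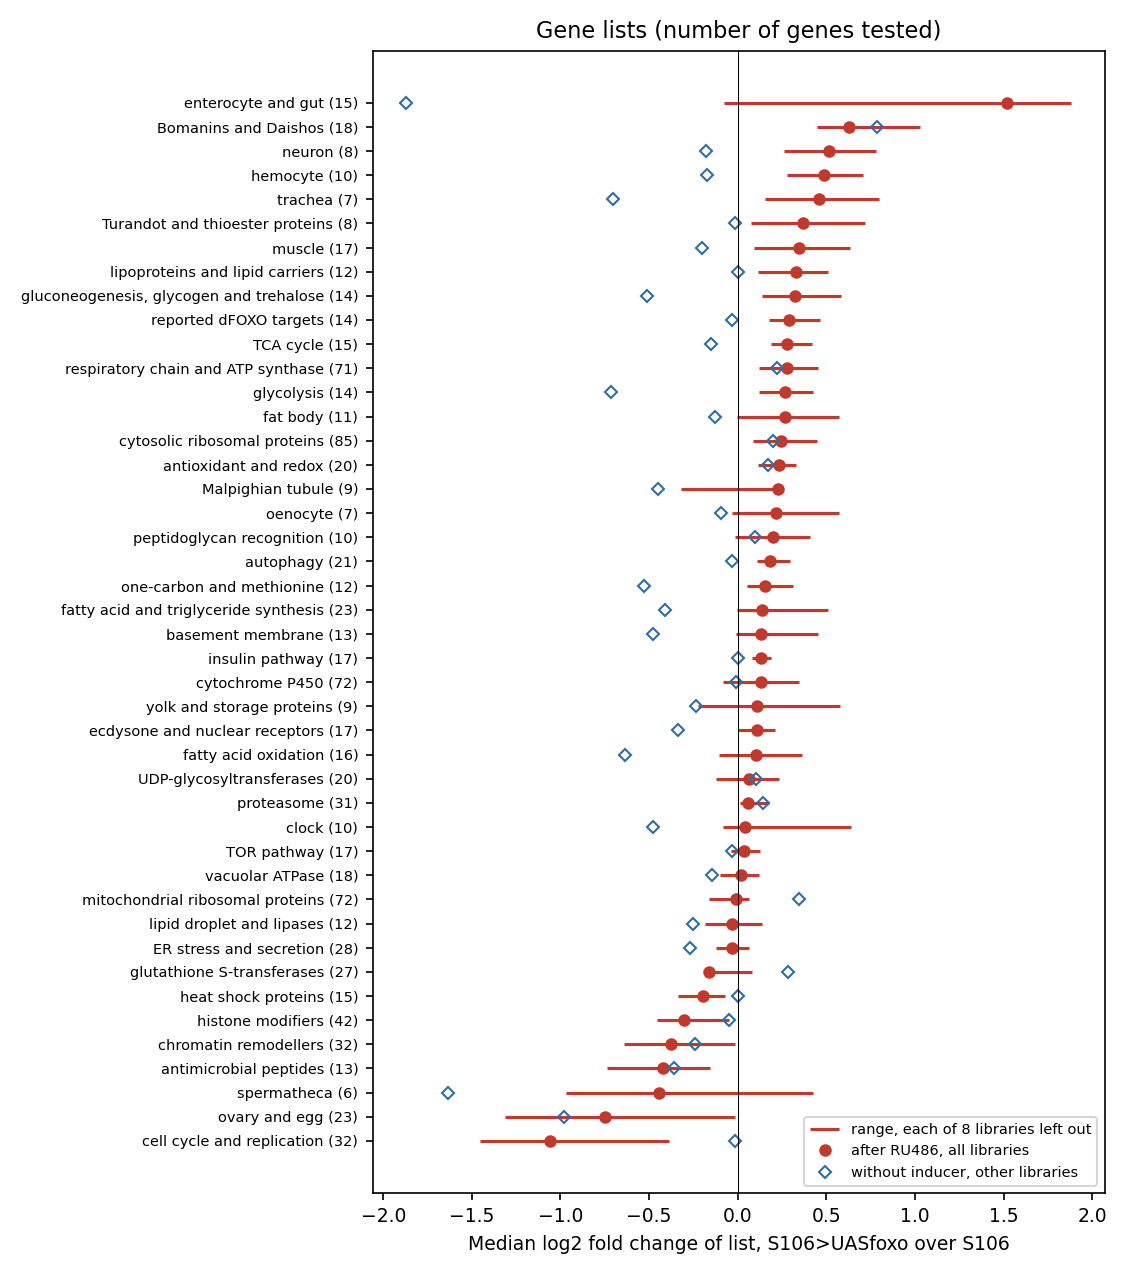
Median log2 fold change of each gene list other than the genotype markers, S106>UASfoxo over S106, after RU486 (filled) with the range over fits that leave out 1 of the 8 libraries (bar), and without inducer (open). Enterocyte and gut markers (1.52) and cell cycle genes (−1.06) are farthest from 0 after RU486, and the bar of the enterocyte and gut markers crosses 0.

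Lists of cell division and chromatin had medians below 0. All 32 tested cell cycle and replication genes were below 0, with a median of −1.06, as were 31 of 32 chromatin remodellers and 31 of 42 histone modifiers, with medians of −0.37 and −0.30. Mcm2, a subunit of the replicative helicase, had 24.4, 3.33, 15.0 and 14.7 CPM in S106>UASfoxo switch, against 58.0, 16.3, 0.965 and 88.3 CPM in S106 switch. S106 switch held both the highest libraries, replicates 1 and 4, and the lowest, replicate 3, and the log2 fold change was −1.51 ± 1.27 (SE). Of 23 tested ovary and egg markers 21 were below 0, with a median of −0.75 that was −0.013 without S106 switch replicate 4. Without the 4 libraries highest in these markers it was 0.26 over 22 tested genes. The eggshell protein gene Cp36 had 0, 0.159, 0.243 and 7.64 CPM in S106>UASfoxo switch, against 4.46, 0.272, 3.50 and 829 CPM in S106 switch. A single library, S106 switch replicate 4, held nearly all of its reads.

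Without the 4 libraries highest in ovary and egg markers the medians of the cell cycle, chromatin remodeller and histone modifier lists were 0.11, 0.08 and 0.08, with 25 of 32, 21 of 32 and 24 of 42 genes above 0. The direction of each of these 3 lists thus turned with the libraries left out. Without S106 switch replicate 4 alone the medians were −0.39, −0.02 and −0.05, and without inducer −0.02, −0.24 and −0.05. eco, a cohesin acetyltransferase, stood at −0.58 ± 0.26 (SE) with all 8 libraries, Tip60, a histone acetyltransferase, at −0.38 ± 0.22 and tefu, the fly ATM kinase, at −0.25 ± 0.22 (SE).

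Markers of other cell types were set beside these results. Enterocyte and gut markers had a median of 1.52, with 13 of 15 tested genes above 0, and −0.08 without S106>UASfoxo switch replicate 2. Amy-p, a digestive amylase, had 38.6 CPM in that library, against 1.11, 3.03 and 6.76 CPM in the other S106>UASfoxo switch libraries and 1.58, 3.67, 2.53 and 1.39 CPM in S106 switch. Of 10 tested hemocyte markers, for the blood cells of the fly, 9 were above 0, with a median of 0.49. PPO1, a prophenoloxidase of crystal cells, had 7.86, 12.2, 11.6 and 8.81 CPM in S106>UASfoxo switch, against 3.67, 6.67, 5.79 and 1.39 CPM in S106 switch. Its groups did not overlap, and the log2 fold change was 1.22 ± 0.53 (SE) with an unadjusted edgeR p of 0.0343. Hml, the clotting protein that marks plasmatocytes, stood at 0.57 ± 0.42 (SE). Of 17 muscle markers 15 were above 0, with a median of 0.34. The hemocyte and muscle medians were 0.12 and 0.18 without the 4 libraries highest in ovary and egg markers, and −0.17 and −0.20 without inducer. Leaving out S106>UASfoxo switch replicate 2 took the muscle median to 0.09. No marker of the gut, hemocyte and muscle lists was called. The part of any of these cell types in the gene list medians was not tested.

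**Figure D5:**
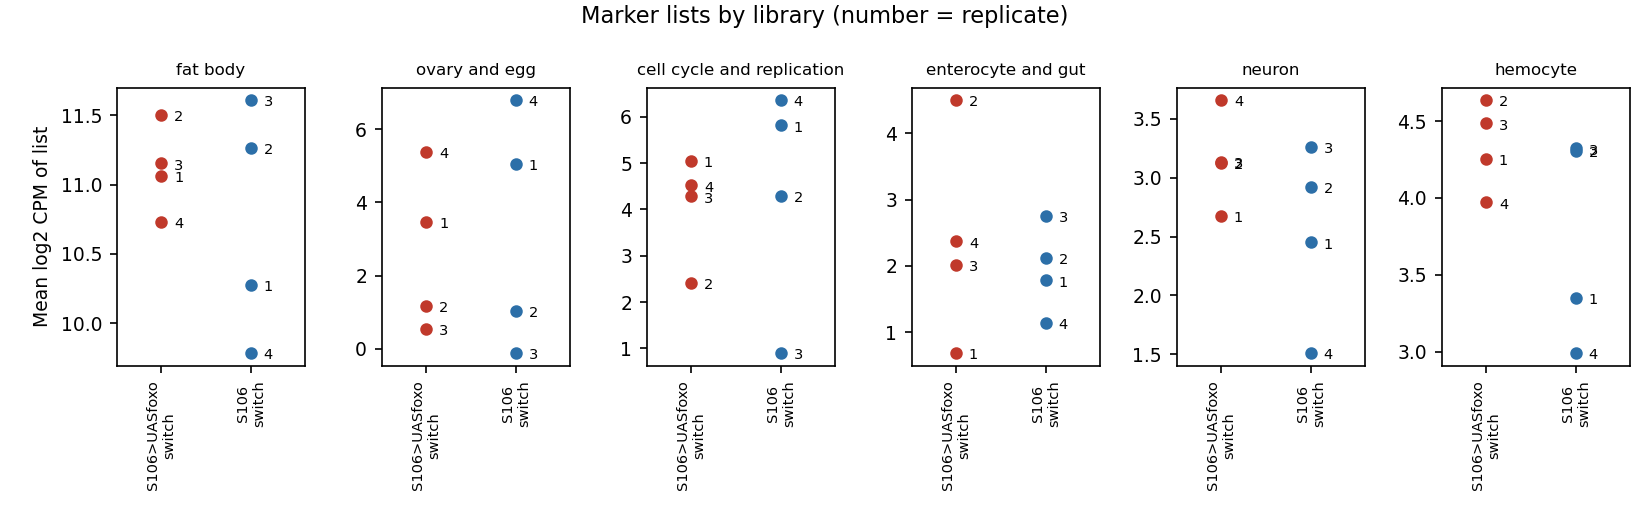
Mean log2 CPM of 6 lists in each library, with S106>UASfoxo switch on the left and S106 switch on the right of each panel and the replicate number beside each point. Replicates 1 and 4 of both groups are highest in ovary and egg markers, S106>UASfoxo switch replicate 2 stands alone in enterocyte and gut markers, and S106 switch replicates 1 and 4 are lowest in fat body and hemocyte markers.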

How the data were processed

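The libraries were poly(A) RNA prepared by a directional kit with molecular barcodes, per the labels' protocols. The authors deposited raw counts of reads for each gene. FastQC, HISAT2, SAMtools, featureCounts and DESeq2 are named in the submitters' processing notes. The sources used here give no genome build, annotation, strand setting or use of the barcodes, so overlapping and antisense genes are uncertain and PCR copies may be counted as reads. Symbols were matched for 14537 of 14649 rows. BDGP6 Ensembl coordinates are printed, and the authors may have used another build.

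All 17 fat body libraries were fitted as 4 groups with edgeR 4.0.16 in R 4.3.3 on the deposited counts. The fit used filterByExpr (99.92 percent of counts kept), TMM scaling and the robust quasi-likelihood test, with Benjamini-Hochberg adjustment at 0.05 over 9819 genes. The common biological coefficient of variation was 0.51. CPM are scaled by TMM, whose factors were 0.782 to 0.994 in S106>UASfoxo switch and 0.777 to 1.406 in S106 switch. Groups were set from titles and the induction label, since the treatment text names RU486 for every sample. The methods were tested on simulated counts drawn around a common profile. Those held no libraries rich in ovarian or digestive transcripts, so they do not show how the methods behave with such libraries.

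The members and gene lists were chosen with earlier results of these data known. Named genes are foxo, w, Thor, InR, Xbp1, the genes called without inducer, every called gene, the genes of smallest p up to 25, up to 4 members of smallest p per list, and the 5 tested genes nearest to foxo on each side. Alternatives were RLE and upper quartile scaling, other filters, DESeq2 1.42.0, limma-voom (limma 3.58.1), the 8 libraries alone, blocks, a threshold of 0.01, and libraries left out. The fit without the 4 libraries highest in ovary and egg markers left out replicates 1 and 4 of the compared groups and kept all control libraries. It was chosen after seeing the data.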

Additional observations from a re-analysis of the deposited data

Results flagged for a closer look

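Single libraries stood apart from the other 3 of their group in 18 of the 244 groups of values examined. The rule flagged a library whose gap to the next took up most of the group's range. It flags about 1 in 20 groups of independent normal values. CPM of single genes and means of lists that share genes are not such values, so that rate is only a guide. Among the called genes, dpr9 was high in S106>UASfoxo switch replicate 1 (12.1 CPM), Argp in S106>UASfoxo switch replicate 4 (3.08 CPM), Dop1R1 in S106 switch replicate 3 (1.21 CPM) and Egfrap in S106 switch replicate 1 (0.0564 CPM, a single read). None of these brought the groups to overlap. With the other S106 switch libraries at 0, any read of Egfrap in a single library would have met the rule.

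Eggshell genes stood apart in S106 switch replicate 4, with 1010 CPM of Cp38, 829 CPM of Cp36 and 85.2 CPM of Cp7Fa. In S106>UASfoxo switch, Cp36 was high in replicate 4 (7.64 CPM) and Cp7Fa was at 0 CPM in replicate 3. Amy-p was high in S106>UASfoxo switch replicate 2 (38.6 CPM), and Idh3a in S106 switch replicate 3 (162 CPM).

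S106>UASfoxo switch replicate 1 was low in Eip93F (92.99 CPM), RpS15Ab (35.6 CPM) and eater (4.36 CPM). S106>UASfoxo switch replicate 4 was high in BomT2 (157 CPM). It was low in the mean log2 CPM of the ER stress and secretion (6.43), clock (5.13) and basement membrane (5.02) lists.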

How the results depend on the processing

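After RU486 the 5 genes kept their direction in every alternative that gave them a value. edgeR called 3 genes with at least 10 counts in 8 libraries, 1 with the 8 libraries alone, 3 at an adjusted p under 0.01, and 0 without the libraries high in ovarian and digestive transcripts (S106 switch replicate 4 and S106>UASfoxo switch replicate 2). Egfrap did not reach 10 counts in 8 libraries, so it was not tested under the first of these. It called 0 without the 4 libraries highest in ovary and egg markers. DESeq2 called 9. Leaving out 1 library gave 2 to 4. Over all alternatives dpr9 lost its call in 15 of 20, Argp in 10 of 20 and Dop1R1 in 6 of 20. CG43064 lost it in 5 of 20 and Egfrap in 3 of 19. The number at an unadjusted p under 0.05, 154, became 89 without S106 switch replicate 4 and 100 without its replicate 1. It became 279 without S106 switch replicate 2, 384 without its replicate 3 and 317 without S106>UASfoxo switch replicate 1. It was 314 with no filter. Without inducer the 4 calls became 18 by DESeq2 and 2 by limma-voom, and 0 to 1 with 1 library left out.

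Libraries of the same title number correlated at −0.046 to 0.039 in their deviations from the group means. Those of the same round, a grouping read from the library numbers in the labels and not stated there as a batch, correlated at 0.056 to 0.783. Pairs that shared neither ran from −0.701 to 0.608, and the same-round value of 0.783 was the highest of all pairs. Neither grouping was taken to pair the libraries in the main fit. With the replicate block by title number edgeR called 0 genes after RU486 in the 8 libraries, and with the round block 4, and 2 without inducer.

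Xbp1 reversed to −0.0451 without S106 switch replicate 1 (−0.0451 to 0.510 with 1 library left out), −0.0191 without the libraries high in ovarian and digestive transcripts and −0.0833 without the 4 highest in ovary and egg markers. rdx reversed to 0.145 and 0.251 in the last 2 of these fits, and Mcm2 and tefu to 0.0849 and 0.0861 in the last. The cause was not tested. Fits with fewer libraries also test fewer samples, and genes under a few CPM rest on few reads.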
